A study of Homo sapiens with 2 samples.

Results

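GATA2 ChIP-seq peaks on human chromosome 19 were described by gene block, with the clusters of zinc finger genes set against the rest of the chromosome. Members were the peaks on chromosome 19 of the deposited hg19 list whose midpoint lay outside 51.22 to 51.70 Mb, the interval of the kallikrein genes. There were 477 of them among the 36797 peaks of the list. The 7 zinc finger clusters were taken as 8.6 to 10.0, 11.6 to 12.6, 19.8 to 24.6, 36.0 to 38.4, 44.2 to 45.0, 52.0 to 54.0 and 56.0 to 59.1 Mb. They held 116 members, and the other positions, called the rest of the chromosome, held 361. No peak crossed a block edge. The rule for members and blocks uses positions and no score, width or density, but it was written with earlier results of these data known.

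The list came from ChIP-seq with an antibody against GATA2 in 2 replicate samples of LNCaP, a human prostate cancer cell line that responds to androgen. Both replicates were the same condition, RPMI medium with 10% serum changed to 5% charcoal-treated serum, which is low in steroid hormones, for 3 days. The replicates share 1 list, and no input or other control sample was used here. No value therefore has a replicate error and no p-value was computed. The 95% intervals below cover counting over peaks alone, and peaks are not replicates. The read depth behind the peaks is unknown. The score is the authors' value from the peak caller, with no stated unit. It was used only within the list, to rank and group peaks and to give medians. Ratios of median scores depend on that unstated scale. Scores in the list ran from 80.0 to 3100, so the low-scoring peaks lie just above the lowest value kept. The score was not taken as a measure of binding strength.

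GATA2 is a transcription factor that contacts DNA through a pair of GATA-type zinc fingers and reads short motifs around the letters GATA. In prostate cancer cells it is known as a partner of the androgen receptor at enhancers. Chromosome 19 is the most gene-dense human chromosome and carries large tandem arrays of genes for another protein class, the C2H2 zinc finger proteins. Many of those have a KRAB domain that recruits the corepressor TRIM28, and many silence transposable elements. In many cell types the arrays themselves are known to be covered by the repressive histone mark H3K9me3. Neither chromatin marks nor expression were measured in these samples.

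The gene content of the blocks was not checked, since gene positions at hand were of GRCh38 and the blocks and peaks are of hg19. Symbols were counted over the whole chromosome only. In RefSeq, 265 of the 1451 protein-coding genes of chromosome 19, or 18.3%, have a symbol beginning with ZNF, ZFP, ZSCAN, ZIM or ZIK. That is 48.3% of the 549 such genes on the 22 autosomes, and the next highest chromosome has 37. In gene order, 241 of the 265 stand next to another gene of the group. Uninterrupted runs of at least 5 numbered 19, and the longest held 27 genes. Which individual genes lie at the peaks described below was not analysed here.

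High-scoring GATA2 peaks were sparse in the zinc finger clusters, while the density of low-scoring peaks there could not be told apart by counting from that on the other autosomes. When the whole list was divided into 4 equal classes by score, the highest-scoring 25% (scores from 397) numbered 10 in the clusters, or 0.646 per Mb (95% interval 0.310 to 1.19). The rest of chromosome 19 held 78, or 1.95 per Mb (1.54 to 2.44), and the other 21 autosomes averaged 3.37 per Mb (3.30 to 3.44). The clusters thus had 0.33 times the density of the rest of the chromosome in this class (0.15 to 0.64) and 0.19 times that of the other autosomes (0.092 to 0.35). In the lowest-scoring 25% (scores under 128) the clusters held 52 peaks, or 3.36 per Mb (2.51 to 4.40). The rest held 112, or 2.80 per Mb (2.31 to 3.37), and the other autosomes 3.27 per Mb. In this class the ratio of clusters to rest was 1.20 (0.84 to 1.68), and that of clusters to other autosomes was 1.03 (0.77 to 1.35), both intervals including 1. Copy number and how uniquely short reads map in the clusters were not examined. Their part in the densities, scores and widths given here was not tested.

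**Figure D1:**
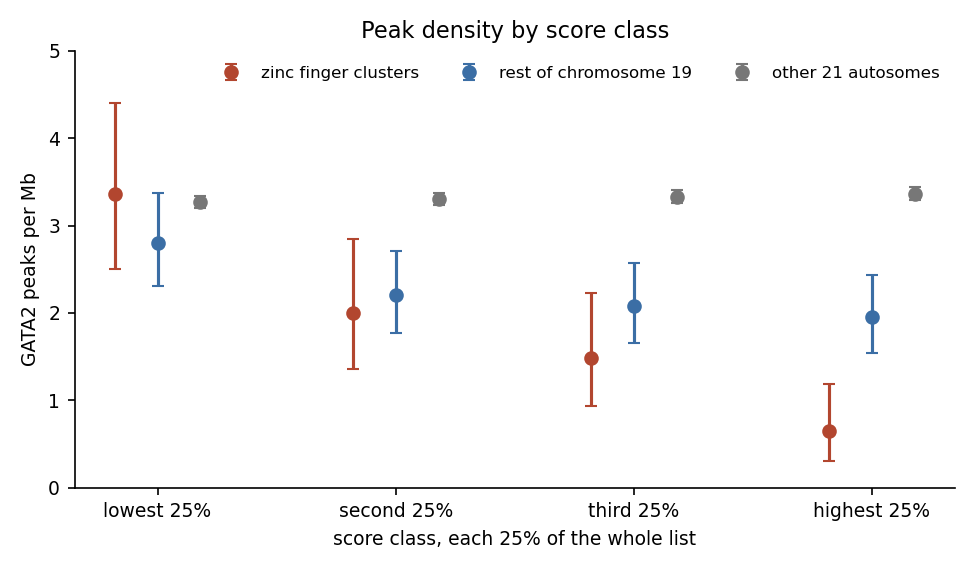
GATA2 peaks per Mb (vertical axis) in 4 score classes, each 25% of the whole list (horizontal axis), for the zinc finger clusters, the rest of chromosome 19 and the other 21 autosomes. Points are densities and bars are exact Poisson 95% intervals. The clusters go from 3.36 per Mb in the lowest class to 0.646 in the highest, while the other autosomes stay between 3.27 and 3.37.

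The middle classes lay between these ends. In the second 25% of scores the clusters had 2.00 peaks per Mb and the rest 2.20. In the third 25% the clusters had 1.49 per Mb and the rest 2.08, a ratio of 0.71 (0.43 to 1.15). Relative to the other autosomes, the clusters had 0.61 times the density in the second class (0.41 to 0.86) and 0.45 times in the third (0.28 to 0.67). The ratio of clusters to other autosomes therefore went down over all 4 classes. For the rest of the chromosome the same ratios were 0.86 (0.71 to 1.03), 0.67 (0.53 to 0.82), 0.62 (0.50 to 0.77) and 0.58 (0.46 to 0.73) from lowest to highest class.

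As shares of their own peaks, 28.4% of cluster peaks (33 of 116, Wilson interval 21% to 37.2%) scored at or above the list median of 212. The share was 44.6% in the rest (161 of 361, 39.6% to 49.8%) and 50.5% on the other autosomes. The difference between clusters and rest was -16.2 percentage points (95% Newcombe interval -25.2 to -6.01). In the best-scoring 10% of the list, with scores from 687, were 2 cluster peaks (1.72%) and 39 peaks of the rest (10.8%), a difference of -9.08 points (-12.9 to -3.91). No cluster peak scored 1000 or more (0 of 116, which allows a share of up to 2.59% at a limit of 3 counts, or 3.21% by the Wilson interval), against 15 of 361 in the rest (4.16%) and 3.79% on the other autosomes. For the rest, the interval of the share in the best 10% (8% to 14.4%) includes the 10.2% of the other autosomes. For the clusters the interval (0.474% to 6.07%) lies below it.

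Counted over all scores, the density was lower in the clusters than in the rest by an amount that the counts leave uncertain. The clusters held 7.49 peaks per Mb over 15.5 Mb (95% interval 6.19 to 8.98), and the rest held 9.04 per Mb over 39.9 Mb (8.13 to 10.0). The ratio was 0.83, and its interval of 0.67 to 1.02 includes 1. The clusters made up 27.9% of the usable length and 24.3% of the members. Both parts were below the other 21 autosomes combined, which had 13.3 peaks per Mb. The ratio to those autosomes was 0.56 for the clusters (0.47 to 0.68) and 0.68 for the rest (0.61 to 0.75). The low peak density of chromosome 19 was therefore present outside the zinc finger clusters as well.

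The median score was 135 in the clusters (order-statistic interval 119 to 172) and 184 in the rest (168 to 210), intervals that overlap slightly. On the other autosomes it was 215. Scores ran from 80.8 to 773 in the clusters and from 80.1 to 1766 in the rest, and 28 peaks of the rest scored above the best cluster peak. Of the 50 highest-scoring members 3 lay in a cluster, and of the 100 highest 11 did.

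Cluster peaks were also narrower. Their median width was 203.5 bp (184 to 226), against 264 bp in the rest (247 to 285) and 295 bp on the other autosomes. The covered sequence was 25.2 kb in the clusters, 0.163% of their length, and 103 kb in the rest, 0.258%. Width and score go together in this list (Spearman's rho 0.66 across 116 cluster peaks and 0.82 across 361 peaks of the rest, as a description). Within a score class the widths were closer. In the lowest 25% the median was 161.5 bp in both parts. In the third 25% it was 274 bp in the clusters (253 to 333) and 316 bp in the rest (302 to 335), and in the highest 25% it was 352.5 bp (275 to 370) and 384.5 bp (363 to 413). The interval for the third class overlapped between the parts, as did that for the highest. In the lowest class the peaks of the other autosomes had a median of 187 bp (186 to 188), wider than in either part.

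**Figure D2:**
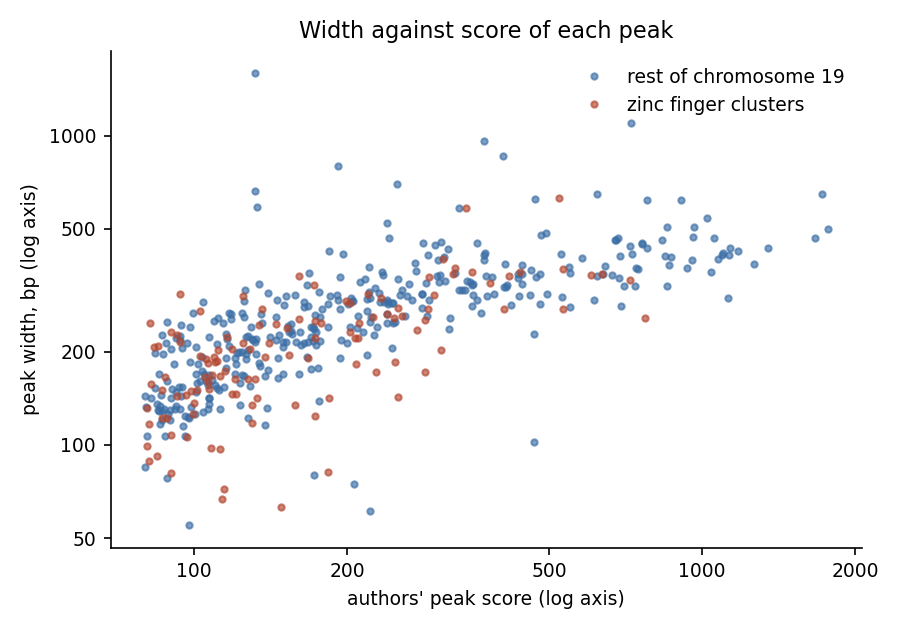
Width in bp (vertical axis) against the authors' peak score (horizontal axis), both on log axes, for each of the 477 members, coloured by zinc finger clusters and rest of chromosome 19. Cluster peaks fill the lower left and end at a score of 773, and the widest member, 1589 bp, belongs to the rest and scores 132.

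The 7 clusters differed among themselves, within wide intervals. They are numbered Z1 to Z7 along the chromosome, and the 8 stretches between them S1 to S8. Z2 (11.6 to 12.6 Mb) was the densest, with 11 peaks, or 11 per Mb (5.49 to 19.7), and Z1 (8.6 to 10.0 Mb) the sparsest, with 7 peaks, or 5.00 per Mb (2.01 to 10.3). Z7 (56.0 to 59.1 Mb) had 9.08, Z5 (44.2 to 45.0 Mb) 8.75, Z3 (19.8 to 24.6 Mb) 7.92, Z6 (52.0 to 54.0 Mb) 6 and Z4 (36.0 to 38.4 Mb) 5.42 peaks per Mb. Of the 7 clusters 5 lay below the density of the rest, Z2 and Z7 being the exceptions, but the interval of each of the 7 included it, so neighbours in this order cannot be told apart at these counts.

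The median score of each of the 7 clusters was under the list median of 212, though the intervals of Z2, Z5, Z6 and Z7 include it, and 6 of them were under the median of the rest, with Z2 the exception at 203. Among the stretches, 5 of 8 had a median under that of the list. Z1 had no peak above the list median (0 of 7, Wilson interval up to 35.4%), and its scores ran from 98.9 to 177. Z4 had 2 of 13, Z5 2 of 7, Z3 11 of 38, Z7 9 of 28, Z6 4 of 12 and Z2 5 of 11. By median width 6 of the 7 clusters were under the rest.

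**Figure D3:**
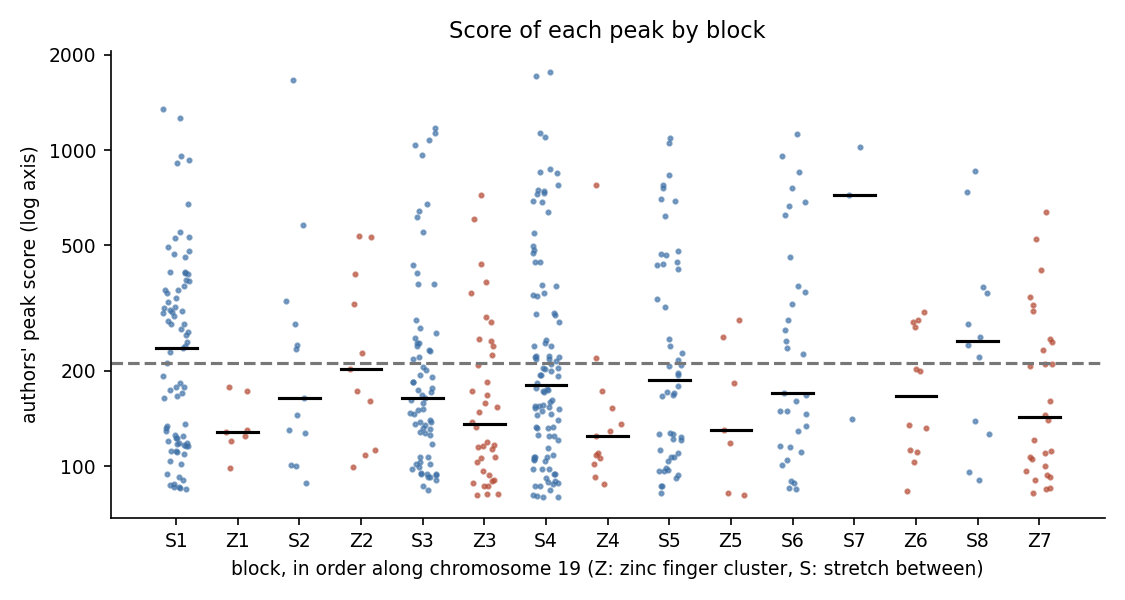
Authors' peak score (log axis) of each member by block in order along chromosome 19, with Z for the 7 zinc finger clusters and S for the 8 stretches between them. Black bars are block medians and the dashed line is the list median of 212. All 7 cluster medians lie below the line, and the points above 1000 are all in stretches.

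The stretches between the clusters were uneven too. S4 (24.6 to 36.0 Mb) held 100 peaks, or 12.1 per Mb of its usable length (9.81 to 14.7). S7, the short piece from 51.70 to 52.0 Mb beside the kallikrein interval, held 3, with a median score of 720. S3 (12.6 to 19.8 Mb) had 9.58, S1 (0 to 8.6 Mb) 9.50, S5 (38.4 to 44.2 Mb) 8.62 and S2 (10.0 to 11.6 Mb) 8.13 per Mb. The lowest were S8 (54.0 to 56.0 Mb) with 6 and S6 (45.0 to 51.22 Mb) with 5.31 per Mb (3.65 to 7.45), as sparse as the sparser clusters. The peaks of S6 were nevertheless above the list median in 16 of 33 cases, or 48.5%. In S1 the share was 43 of 81, or 53.1%, with a median score of 236, and in S3 it was 24 of 69, or 34.8%, with a median of 165. All 8 stretches and all 7 clusters were below the 13.3 peaks per Mb of the other autosomes, and for 5 stretches and 5 clusters the whole interval was below it.

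**Figure D4:**
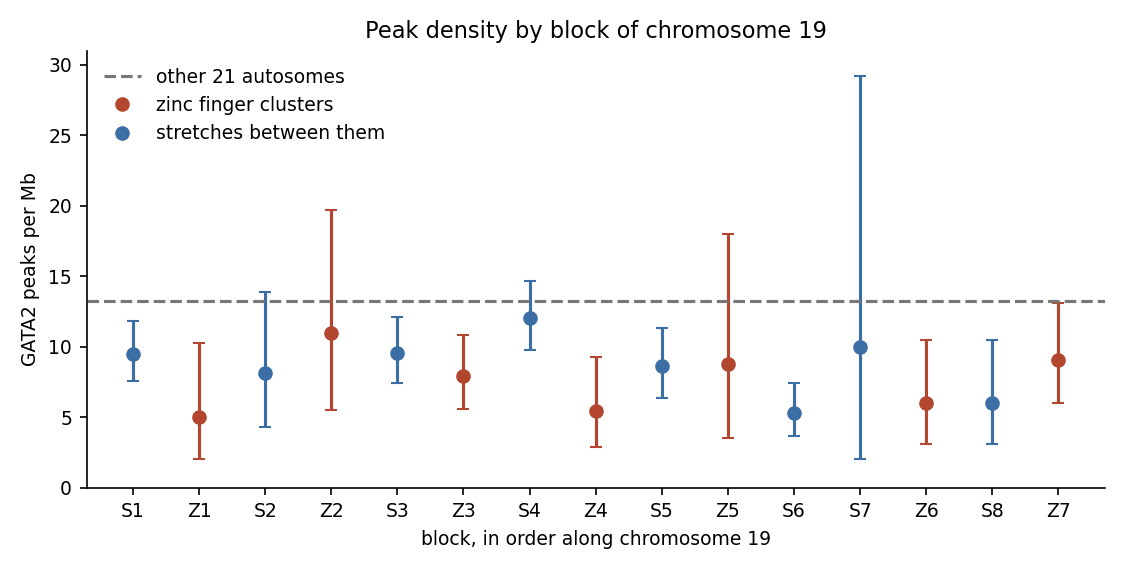
GATA2 peaks per Mb (vertical axis) in each block in order along chromosome 19, with exact Poisson 95% intervals. Zinc finger clusters and the stretches between them overlap, from 5.00 to 11 and from 5.31 to 12.1 per Mb, and all 15 points lie under the dashed line of the other 21 autosomes at 13.3.

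The 10 highest-scoring members all lay in the rest. The highest, chr19:33523338-33523834, scored 1766 and was 497 bp wide, with another peak centre 6.71 kb away. Next came chr19:31604123-31604767 with 1720 (645 bp) and chr19:10788328-10788793 with 1663 (466 bp). In S1 the peak chr19:800478-800911 scored 1348, and chr19:7265893-7266277 scored 1264 with its nearest neighbour 198 kb away. In S3 were chr19:16295875-16296297 (1176) and chr19:18294357-18294768 (1130). S4 added chr19:33839551-33839982 (1136) and chr19:34948779-34949196 (1098), so 4 of the 10 were in S4 beyond the centromere. The peak chr19:48151578-48151875 in S6 scored 1123 at a width of only 298 bp and stood 496 kb from any other. These top peaks were 298 to 645 bp wide and came both in company and alone.

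The best peak of S5 was chr19:39353186-39353596 (1096), that of S7 chr19:51881713-51882252 (1023) and that of S8 chr19:55850036-55850418 (860). The 15 members at 1000 or more were spread over 7 of the 8 stretches, with 4 each in S3 and S4 and none in S8.

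Peaks of the highest score class did occur inside zinc finger clusters, and the 10 of them lay in 4 of the 7. The best was chr19:36066504-36066761 in Z4, which scored 773 and was 258 bp wide, the narrowest of the 10, with its nearest neighbour 117 kb away. It lay 66.6 kb inside the cluster edge. In Z3 the peaks chr19:21882826-21883167 (722), chr19:23437263-23437616 (605) and chr19:23896611-23896972 (437) lay deep in the cluster, 703 kb or more from an edge. Z7 held chr19:58322241-58322596 (636), chr19:57442328-57442955 (522, the widest of the 10 at 628 bp) and chr19:56653105-56653455 (417). In Z2 were chr19:11639273-11639642 (533), chr19:11692994-11693268 (531) and chr19:12511040-12511315 (407), each within 100 kb of an edge. Each of the 10 had its nearest neighbour more than 10 kb away. The other clusters had lower tops: chr19:52715187-52715388 in Z6 with 306, chr19:44440331-44440604 in Z5 with 289 and chr19:9945337-9945584 in Z1 with 177.

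Within the clusters, peaks were denser near the edges than farther in. The inner 0.1 Mb along the 14 cluster edges held 27 peaks over 1.38 Mb, or 19.5 per Mb (12.8 to 28.4). The remaining 14.1 Mb held 89, or 6.31 per Mb (5.07 to 7.77), and the outer 0.1 Mb held 20, or 16.3 per Mb (9.94 to 25.1). The edge peaks were spread over 12 of the 14 edges, with 5 at the upper edge of Z3, near the centromere, and 4 at the upper edge of Z5. The upper edges of Z1 and Z7 had 3 each, and usable length in Z7 ends at the last peak of the chromosome. The edge density was not recomputed without the upper edges of Z3 and Z7. Their median score was 134 (120 to 184), close to the 136 (112 to 173) of the peaks farther in. The share above the list median was 18.5% for these edge peaks, 31.5% farther in and 45% in the outer 0.1 Mb. Of the 10 cluster peaks of the highest score class, however, 4 were edge peaks. The edges are round positions set by the block rule and not gene boundaries.

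The share of peaks with a close neighbour was lower in the clusters by less than the counting error. A neighbouring centre lay within 10 kb for 21 of 116 cluster peaks (18.1%, 12.2% to 26.1%) and 85 of 361 peaks of the rest (23.5%, 19.5% to 28.2%), a difference of -5.44 percentage points with an interval of -13.0 to 3.53. From each peak to its nearest neighbour the median distance was 35.7 kb in the clusters (22.8 to 43.1) and 34.4 kb in the rest (28.0 to 40.0). There were 12 runs of at least 3 members in which each centre followed the one before within 12500 bp, and 3 of the runs lay in clusters. The longest in a cluster was chr19:24176664-24185916 in Z3, with 7 peaks of median width 89 bp and median score 115. In the rest it was chr19:27752835-27769282, also of 7 peaks, with a median score of 125.

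Of those 12 runs, 6 lay within 1 Mb of the single long peak-free stretch of the chromosome, from 24629163 to 27731781, which spans the centromere. Peaks crowded on both sides of it at low scores. The 1 Mb before it held 19 members with a median score of 133, and the 1 Mb after it held 30 with a median of 136.5. Of the latter, 24 lay in the first 0.25 Mb. The 2 widest members adjoin it as well, at chr19:27736210-27737798 (1589 bp, score 132) and chr19:27731782-27732880 (1099 bp, score 724), and the next widest was chr19:50379742-50380704 (963 bp, score 372). Without these 2 flanks the clusters held 98 peaks, or 6.75 per Mb, with a median score of 135, and the rest 330, or 8.48 per Mb, with a median of 194. Z3 went from 7.92 to 5.22 peaks per Mb without its flanking part (20 peaks, 3.19 to 8.07), and S4 beyond the flank had 9.49 per Mb. The ratio to the other autosomes, with their flanks left in, was then 0.51 for the clusters (0.41 to 0.62) and 0.64 for the rest (0.57 to 0.71). The highest-class ratio of clusters to rest was 0.32 without the flanks, as large a difference as with them.

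By 1 Mb bins, the 3 with the most members were 27 to 28 Mb with 24, 24 to 25 Mb with 17 and 39 to 40 Mb with 15. The first 2 border the peak-free stretch and had median scores of 132. The bin from 39 to 40 Mb in S5 had a median score of 167 and a median width of 330 bp. It includes the run chr19:39322344-39328769, 3 peaks of which the best scored 1054. The 2 bins with none lay wholly in the peak-free stretch. How much of that stretch is assembled sequence in hg19 was not checked. Over the 12 whole bins inside clusters the count was 6.25 ± 2.49 (SD across bins), and over the 35 outside it was 8.09 ± 3.37. The counts of the single bins overlap, from 2 to 9 inside clusters and from 1 to 15 outside. Bins touching the peak-free stretch or the kallikrein interval, the 2 fullest among them, were left out of these counts. With bins partly in clusters added, the variance over all 53 bins was 1.28 times the mean. It was 0.99 times the mean inside clusters and 1.41 times outside.

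The next longest peak-free regions were 1.09 Mb in Z6 (52715389 to 53809542), 1.01 Mb in S5 (42844003 to 43856275), 0.905 Mb in Z3 (21972800 to 22877545) and 0.817 Mb from 50490681 to 51307809 in S6 and the kallikrein interval. These long empty regions thus occurred in both parts. The empty region in Z6 takes up more than a megabase of a 2.00 Mb cluster and begins right after that cluster's best peak. Since depth is unknown, absence of a peak does not show absence of binding.

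The kallikrein interval left out of the members held 6 peaks with scores from 94.6 to 1814 and a median of 986. The members on either side of it were chr19:50490561-50490680 (score 89.9) and chr19:51858207-51858429 (score 141).

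Set beside other small or gene-dense chromosomes, the rest of chromosome 19 was still the sparser. Its 9.04 peaks per Mb were 0.87 times the density of chromosome 16 (0.77 to 0.99), 0.83 times that of chromosome 22 (0.72 to 0.97), 0.78 times that of chromosome 20 (0.69 to 0.89) and 0.66 times that of chromosome 17 (0.59 to 0.75). Its median score of 184 (168 to 210) was near those of chromosome 16 at 198 (179 to 215) and chromosome 20 at 206 (192 to 228), and the intervals overlap. Its median width of 264 bp (247 to 285) compares with 279 bp (272 to 291) on chromosome 16 and 295 bp (286 to 302) on chromosome 17. The gap to chromosome 16 in density and score was thus narrow, and the zinc finger clusters stood farther off. The density interval for chromosome 16 ends just below 1 and assumes Poisson counts. Counts of 1 Mb bins outside clusters had a variance of 1.41 times their mean, so that interval may be too narrow.

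Per gene the contrast was wider. All 483 peaks of chromosome 19, kallikrein interval included, came to 0.333 per protein-coding gene of RefSeq. The other autosomes ranged from 0.845 on chromosome 22 to 3.42, with a median of 2.15. Chromosome 17, with 1169 protein-coding genes, had 0.908, and chromosome 1, with 2061, had 1.70. Numbers of genes are those of GRCh38 and were joined by chromosome only.

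**Figure D5:**
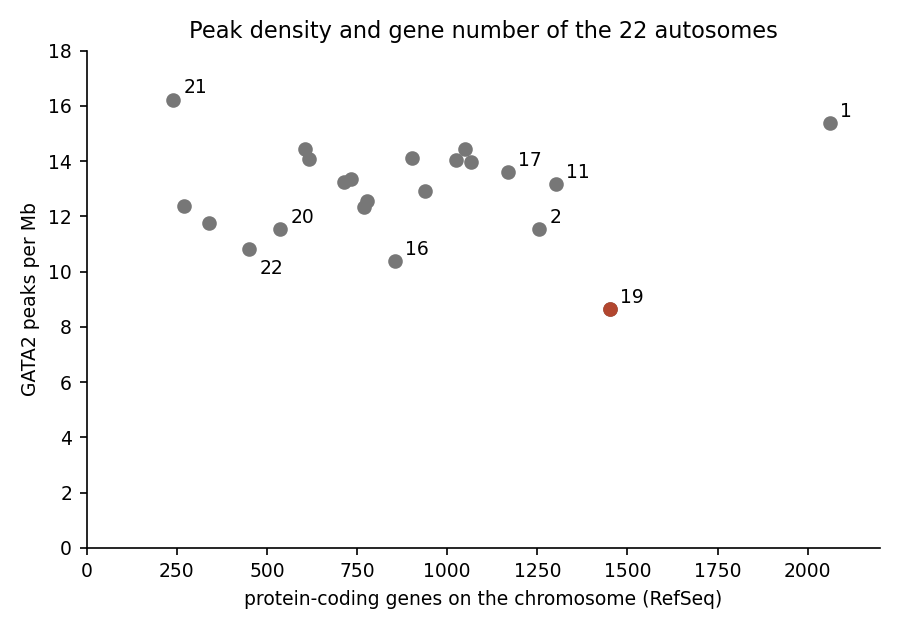
GATA2 peaks per Mb (vertical axis) against the number of protein-coding genes in RefSeq (horizontal axis) for the 22 autosomes, 1 point each, with chromosome 19 in red and some others numbered. Chromosome 19 combines 1451 genes with the lowest peak density, while chromosome 1, with more genes, is among the densest in peaks. The number of genes on a chromosome is not its gene density, which was not plotted.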

How the data were processed

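GATA2 ChIP-seq of 2 replicate LNCaP samples was available as 1 list of peaks. Libraries had 16 PCR cycles and fragments of about 225 bp, per the labels' protocols. Bowtie and the hg19 build are named by the submitters' processing notes. The deposited peaks carry names that MACS gives. For versions, a control library, duplicate reads and the pooling of replicates, details were not given in the sources used here. The score is the value deposited by the authors, of unstated scale. Depth is unknown.

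Starts were made 1-based and midpoints assigned peaks to blocks. The members, blocks and lists were chosen with earlier results of these data known. Usable length ran from the first to the last peak less peak-free stretches over 2.5 Mb and the kallikrein interval. Densities have exact Poisson 95% intervals, ratios exact conditional (Clopper-Pearson) ones, medians exact binomial order-statistic ones, shares Wilson and their differences Newcombe ones. No list of regions prone to anomalous signal was applied. Peaks named by position are the 10 highest-scoring members, the best of each block, the 3 widest, the 3 fullest 1 Mb bins and those with none, and the longest runs. The cluster peaks of the highest score class, the other long peak-free regions, the counts by score class and the edge counts were chosen after the values were seen. No hg19 sequence or annotation was used. Gene symbols, gene order and promoters come from RefSeq (GRCh38). The density, median and ratio calculations were tested on simulated peaks. Python 3.11.15, numpy 2.4.6, pandas 2.3.3, scipy 1.17.1 and matplotlib 3.10.9 were used.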

Additional observations from a re-analysis of the deposited data

How the results depend on the processing

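The density ratio of clusters to rest, 0.83, stayed below 1 under 16 alternatives, and its interval was wholly below 1 in 6 of them. With peaks in the better-scoring 50% alone it was 0.53, and in the best-scoring 10% (2 cluster peaks) 0.13. With cluster edges moved by 0.1 Mb it was 0.67 when narrowed (interval 0.53 to 0.85) and 0.92 when widened. It was 0.76 without peaks scoring under 100, 0.80 without Z2 and 0.79 without Z7, each with an interval just below 1. These intervals assume Poisson counts and may be too narrow, since bins outside clusters had a variance of 1.41 times their mean. The median score ratio, 0.74, became 0.81 and 0.82 for the better 50% and best 10%, and 0.78 without peaks under 100. The median width ratio, 0.77, became 0.85, 0.72 and 0.76. The alternatives behind those shifts each select peaks by score, and the best 10% held only 2 cluster peaks. The other 56 of 64 planned values stayed within the intervals of the values reported. The difference in the share with close neighbours was at or above 0 under 3 alternatives, for example 0.80 points with widened clusters. It was below 0 under the other 13. Without the 1 Mb flanks of the long peak-free stretch the shares were 11.2% and 19.1%, a difference of -7.87 points (-14.5 to 0.81). The ratio in the highest score class, 0.33, ranged from 0.21 to 0.48 over 13 of the planned settings, and that in the lowest class, 1.20, from 1.04 to 1.30. Both of these ratios were themselves added after seeing the data. Leaving out a replicate was not possible, and the alternatives for promoters and motifs at peaks were not run. No paired analysis was possible because both replicates form a single group and no column carries a replicate number.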

Other observations

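Promoter sequences of RefSeq (GRCh38, 250 bases before to 50 after each gene start, matched by symbol for 1185 of the 1451 protein-coding genes of chromosome 19) were searched for the letters AGATAA or TGATAA on either strand. These are common forms of the GATA motif. On chromosome 19 they were present in 18 of 229 promoters of zinc finger symbols (7.86%, Wilson 95% interval 5.03% to 12.1%) and in 95 of 956 other promoters (9.94%, 8.20% to 12.0%). On the other autosomes 12.3% of the 13682 promoters of other genes held them (11.7% to 12.8%), and so did 15 of 233 promoters of zinc finger symbols (6.44%, 3.94% to 10.3%). Over all 15100 autosomal promoters the share was 12.0%. The median GC content was 60% for zinc finger promoters of chromosome 19, 64.0% for its other promoters and 63.0% elsewhere for both zinc finger and other promoters. The intervals for zinc finger and other promoters overlap on chromosome 19 and do not overlap elsewhere, and the difference itself was not tested. These are letters in promoter windows, not in peaks, and which peaks overlap a promoter was not analysed here.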
